A study of Homo sapiens with 10 samples.

Results

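The integrated stress response and amino acid genes are 36 genes chosen by symbol: transcription factors of the ATF4 pathway and its feedback regulators, enzymes that make serine, glycine, asparagine, proline, alanine and cysteine, and amino acid transporters. All 36 symbols had a feature in the count table of 22003 features, and all 36 were among the 14799 features tested. The rule is the list of symbols and uses no measured value. The symbols were, however, chosen with earlier results of these data known, so shares called among them are not independent of those results. RNA was sequenced from HaCaT, an immortalised line of human keratinocytes, the main cells of the epidermis, which was grown in medium with 5% serum and has mucosa as its labelled source. LBP is a mixture of polysaccharides and glycoproteins extracted from Lycium barbarum, the goji shrub. Cultures were given LBP or its vehicle for 24 h, after which they were irradiated with 12 Gy or not irradiated, and RNA was taken 3 h after the dose. The 4 groups were irradiated LBP (LBP, then 12 Gy, n = 3), irradiated vehicle (vehicle, then 12 Gy, n = 3), LBP without irradiation (n = 2) and vehicle without irradiation (n = 2). Libraries within a group are labelled as repeated experiments, but no label says that they are separate cultures, so the p-values reflect the spread between these libraries alone, which may be technical.

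In the integrated stress response, kinases that sense amino acid shortage, unfolded proteins, double-stranded RNA or haem deficiency phosphorylate the translation factor eIF2. General protein synthesis then slows, while the mRNA of ATF4, a basic leucine zipper transcription factor, is translated more. ATF4 and its partners bind C/EBP-ATF response elements and switch on genes for amino acid uptake, amino acid synthesis and the charging of tRNA, together with feedback genes that restore translation. ATF4 is therefore controlled largely at translation, and mRNA levels do not report its protein.

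Depth ran from 31830506 to 62986831 counts per library, the shallowest being irradiated LBP replicate 2. Levels are CPM, which are counts scaled for library size, here with edgeR's TMM factors. Differences are log2 fold changes ± standard error (SE), and are called estimates where they missed the threshold. A gene was called at an adjusted p under 0.05 in edgeR's quasi-likelihood test over all features tested. The 8 keratinocyte markers were all above 1 CPM, with summed levels of 13100 to 13900 CPM in irradiated LBP, 11400 to 13300 in irradiated vehicle, 14700 to 15200 in LBP and 11800 to 12700 in vehicle libraries. Of 5 markers of simple or mucosal epithelium 4 exceeded 1 CPM, with summed levels of 6460 to 7300, 7400 to 8320, 7240 to 8340 and 8100 to 8430 CPM in the same order. Summed markers reached at most 5.74 CPM for fibroblasts, 1.27 for melanocytes, 0.154 for leukocytes and 3.44 for endothelium, and in each of these lists 1 marker had no count in any library. In such bulk libraries, fewer cells of a type and less RNA per cell cannot be told apart. The part of these marker differences in the results below was not tested.

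Many of these genes were higher after LBP. Of the 14 that rose in irradiated cells 10 encode metabolic enzymes or amino acid transporters. Such genes also make up most of the list, as 6 serine, glycine and 1-carbon enzymes, 7 other enzymes and 8 transporters of the 36. In irradiated cells 14 of the 36 rose and 0 fell with LBP, or 38.9%, where 2.79% of all features tested were called higher and 1.57% lower. In non-irradiated cells 7 of the 36 rose and 0 fell, or 19.4%, against 0.541% of all features called higher and 0.264% lower. The median log2 fold change of the 36 was 0.42 in irradiated and 0.37 in non-irradiated cells, beside 0.01 for all features in both. ASNS, SLC3A2, CTH, PCK2, PHGDH and PSAT1 were called in both comparisons, which share no library. That is 6 of the 14 and 6 of the 7. Irradiation itself left 0 members called, with or without LBP. Of all features, 0.0338% were called higher and 0.405% lower in vehicle cells. In LBP cells these shares were 0.0135% and 0.128%. With so few features called, 0 of 36 does not set these genes apart.

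**Figure D1:**
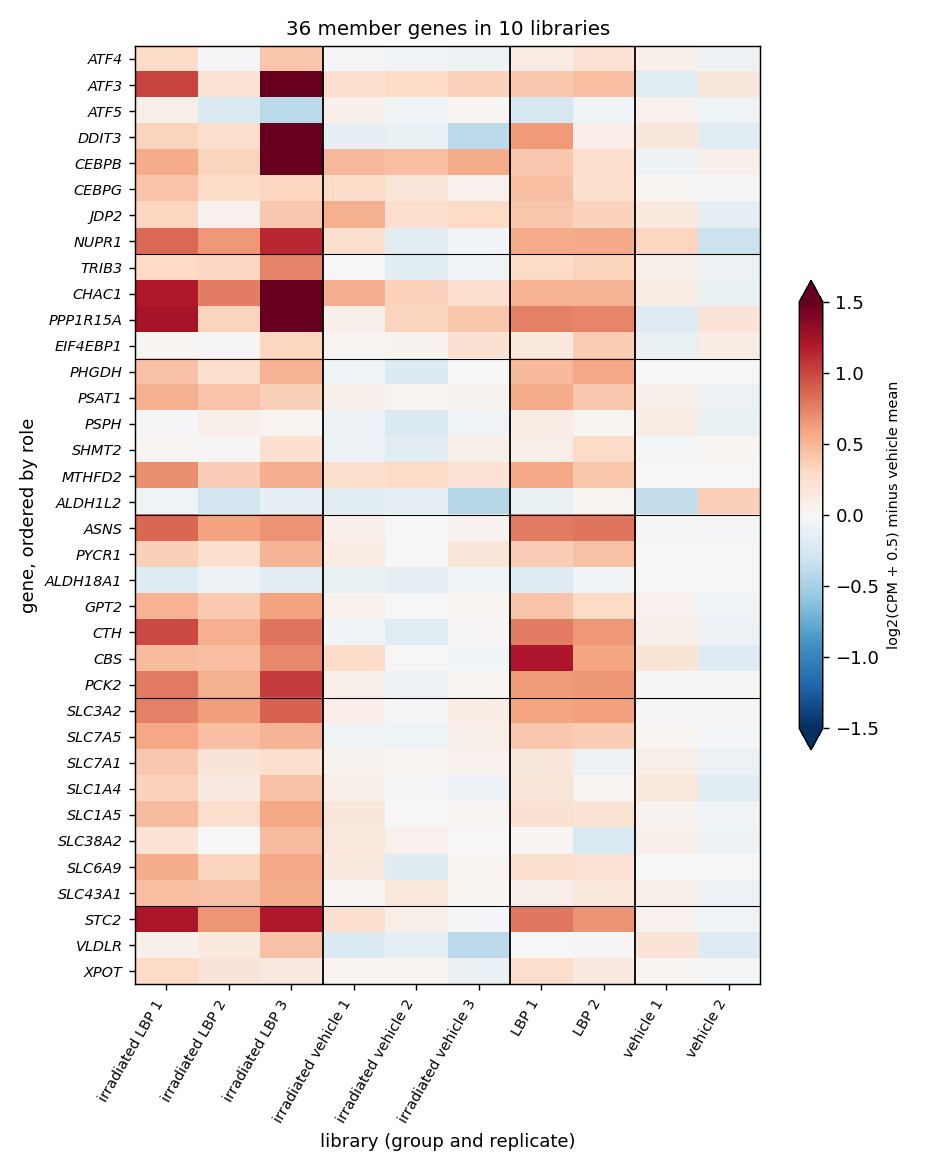
Level of each of the 36 genes in each of the 10 libraries, as log2(CPM + 0.5) minus the mean of the 2 vehicle libraries (colour; red higher, blue lower; values beyond 1.5 are drawn at the end colour). Columns are libraries by group and replicate, and lines split the genes by role. The irradiated LBP and LBP columns are red for most genes, with medians of 0.269 to 0.536 and 0.318 to 0.406, and the irradiated vehicle columns are pale, with medians of 0.00195 to 0.0751.

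Library by library, the 36 genes together took 0.890, 0.816 and 0.938% of all counts in irradiated LBP replicates 1, 2 and 3, against 0.660, 0.633 and 0.663% in irradiated vehicle. They took 0.807 and 0.764% in LBP, against 0.644 and 0.617% in vehicle libraries. Every LBP-treated library was above every vehicle library. A few abundant genes weigh most in these sums. In irradiated LBP replicate 1, SLC7A5 and SLC3A2 gave 137757 and 47734 of the 426913 member counts. Every irradiated LBP library was above every irradiated vehicle library for 24 of the 36 genes, and every one was below for 0, where 13.9% of all features tested had every library above. Every LBP library was above both vehicle libraries for 27 genes, where 23.2% of all features did. Both LBP libraries were below both vehicle libraries for 2 genes, ATF5 and ALDH18A1. The share of all features with every library below was not counted in either comparison, so these counts below are description only. Members also differed among themselves in abundance: on the length-scaled FPKM values, averaged over the 10 libraries, SLC7A5 (440 FPKM), SLC3A2 (336 FPKM), ATF4 (201 FPKM) and PSAT1 (164 FPKM) stood highest. VLDLR (0.391 FPKM), NUPR1 (0.260 FPKM) and ALDH1L2 (0.0413 FPKM) stood lowest.

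The promoters of some members carry the element that ATF4 binds. A pair of motifs was searched for on both strands of the RefSeq windows that run from 250 bases before to 50 bases after each annotated start (build GRCh38.p14), in which 29 of the 36 members had an entry. The C/EBP-ATF response element, spelled TGATGNAA, was present for 9 of these 29 members (31.0%), against 4.46% of all 27305 genes with a window. The members were chosen as genes of the ATF4 pathway, so an excess over all genes may come from that choice alone. Of the 12 called members with a window, 4 had it: ASNS, SLC3A2, CHAC1 and SLC1A5. The antioxidant response element, spelled TGACNNNGC and not overlapping it in letters, was present for 12 of 29 members (41.4%), against 16.1% of all genes. Genes with several annotated starts have more windows and so more chances of a match. The 30 RefSeq bases around each C/EBP-ATF element among the members run 5′ to 3′ on the gene's strand, with the 8 matching bases in capitals, so that the variants can be compared.
ASNS: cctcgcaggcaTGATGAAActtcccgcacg
SLC3A2: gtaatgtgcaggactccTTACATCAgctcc
CHAC1: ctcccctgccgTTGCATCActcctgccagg
SLC1A5: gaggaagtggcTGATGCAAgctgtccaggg
SLC1A4: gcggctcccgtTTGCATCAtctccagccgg
ATF3: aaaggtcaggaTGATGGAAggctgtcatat
SLC7A1: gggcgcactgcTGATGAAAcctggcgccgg
CEBPG: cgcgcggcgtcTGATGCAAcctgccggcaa
JDP2: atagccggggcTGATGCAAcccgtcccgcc
The element of ASNS begins 68 bases before the start. The run shown, at chr7:97872458-97872487 on the minus strand, overlaps an annotated exon of 4 of 17 ASNS transcripts in GENCODE v29. In SLC3A2 the element begins at base 38 after the start, and its run at chr11:62881719-62881748 (plus strand) overlaps an exon of 5 of 23 transcripts. In CHAC1 the element begins 209 bases before the start, and its run at chr15:40953251-40953280 (plus strand) overlaps an exon of 2 of 5 transcripts. In SLC1A5 the element begins 97 bases before the start, and its run at chr19:46784893-46784922 (minus strand) overlaps an exon of 1 of 6. The runs of SLC1A4 at chr2:64989381-64989410, ATF3 at chr1:212565205-212565234, SLC7A1 at chr13:29595663-29595692, CEBPG at chr19:33374060-33374089 and JDP2 at chr14:75427995-75428024 belong to members that were not called. None of the 9 runs lies in a coding part of its gene. A match is only these letters in this window, not a measured binding site, and a window without a match shows nothing about the factor.

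Irradiated LBP cells were set against irradiated vehicle cells (n = 3 each) to ask what LBP pretreatment did in cells that then received 12 Gy. Of 8 transcription factor genes 1, NUPR1, rose. The messenger of ATF4 itself was measured at 388, 317 and 431 CPM in irradiated LBP libraries 1, 2 and 3, against 318, 311 and 304 CPM in irradiated vehicle. It was 351 and 374 CPM in LBP libraries, against 339 and 305 CPM in vehicle. Irradiated LBP replicate 2 fell within the vehicle range, so the irradiated groups overlapped. The log2 fold change of ATF4 was 0.28 ± 0.10 in irradiated cells (edgeR adjusted p = 0.11) and 0.17 ± 0.12 in non-irradiated cells (edgeR adjusted p = 0.55). Without irradiated LBP replicate 2 the value in irradiated cells was 0.40 ± 0.08, and without replicate 3 it was 0.18 ± 0.09 (edgeR adjusted p = 0.016 and 0.28). DESeq2 on all libraries called ATF4 at 0.28 (DESeq2 adjusted p = 0.037).

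ATF3, a stress-induced factor of the same family that often acts as a repressor, had 25.9, 14.5 and 82.0 CPM in irradiated LBP replicates 1, 2 and 3, against 15.1, 15.6 and 16.1 CPM in irradiated vehicle. DDIT3, which encodes the pro-apoptotic factor CHOP, had 11.2, 10.7 and 41.7 CPM in irradiated LBP, against 8.03, 8.17 and 6.60 CPM in irradiated vehicle. CEBPB, a C/EBP family factor, had 52.5, 44.9 and 101 CPM in irradiated LBP, against 49.9, 48.8 and 52.5 CPM in irradiated vehicle. Replicate 3 stood far above the other irradiated LBP libraries for all 3 genes, at 4.06, 3.82 and 2.08 times the mean of replicates 1 and 2. For DDIT3 every irradiated LBP library was above every irradiated vehicle library, while for ATF3 and CEBPB the groups overlapped. The log2 fold changes were 1.39 ± 0.45 for ATF3 (edgeR adjusted p = 0.097), 1.48 ± 0.43 for DDIT3 (edgeR adjusted p = 0.070) and 0.40 ± 0.22 for CEBPB (edgeR adjusted p = 0.32). Without replicate 3 they were 0.38 ± 0.19 for ATF3, 0.53 ± 0.17 for DDIT3 and -0.05 ± 0.09 for CEBPB (edgeR adjusted p = 0.30, 0.13 and 0.81). The sign for CEBPB therefore depended on that library. Without replicate 2, ATF3 and DDIT3 rose by 1.79 and 1.80 (edgeR adjusted p = 0.014 and 0.026), and without replicate 1 DDIT3 by 1.79 (edgeR adjusted p = 0.037).

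In non-irradiated cells ATF3 had 16.8 and 17.3 CPM with LBP, against 11.1 and 14.3 CPM in vehicle, and DDIT3 had 13.9 and 9.44 CPM with LBP, against 9.92 and 7.78 CPM in vehicle. The ATF3 groups did not overlap and the DDIT3 groups did. Neither was called, with estimates of 0.42 ± 0.55 for ATF3 (edgeR adjusted p = 0.79) and 0.40 ± 0.52 for DDIT3 (edgeR adjusted p = 0.78). DDIT3 overlaps MARS1, a methionyl-tRNA synthetase gene on the opposite strand, and the strand setting of the counting is not known, so reads of both genes cannot be told apart with certainty. MARS1 had 334, 315 and 342 CPM in irradiated LBP, against 262, 263 and 279 CPM in irradiated vehicle, with replicate 3 close to replicate 1. DDIT3 also overlaps MBD6 on the opposite strand and AC022506.1 on its own strand, and PYCR1 overlaps MYADML2 on its own strand. SLC1A5, PCK2, MTHFD2, SLC6A9, ATF5, SHMT2 and ALDH1L2 also overlap a counted gene on the opposite strand in GENCODE v29 and carry the same limit.

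NUPR1, a small stress-induced nuclear protein, had 1.24, 1.02 and 1.61 CPM in irradiated LBP, against 0.639, 0.360 and 0.440 CPM in irradiated vehicle. LBP libraries had 0.920 and 0.937 CPM, against 0.711 and 0.271 CPM in vehicle. All 5 LBP-treated libraries were above all 5 vehicle-treated ones. NUPR1 rose by 1.44 ± 0.36 in irradiated cells (2.72-fold, edgeR adjusted p = 0.045), and its estimate in non-irradiated cells was 0.98 ± 0.45 (edgeR adjusted p = 0.37). At this low level the call was lost when irradiated LBP replicate 1 or 3 or any irradiated vehicle replicate was left out, with adjusted p of 0.077 to 0.16 in edgeR. In limma the estimate was 1.06 on log2(FPKM + 0.1) and 0.28 on log2(FPKM + 1), with adjusted p of 0.12 and 0.11. Among the other transcription factors, CEBPG, a heterodimer partner of ATF4, was at 0.17 in irradiated and 0.36 ± 0.10 in non-irradiated cells (edgeR adjusted p = 0.14). ATF5, a relative of ATF4 whose translation is controlled in the same way, was at -0.18 in irradiated and -0.16 in non-irradiated cells, and JDP2, a repressor at AP-1 sites, at -0.09 in irradiated and 0.39 in non-irradiated cells, with no call.

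**Figure D2:**
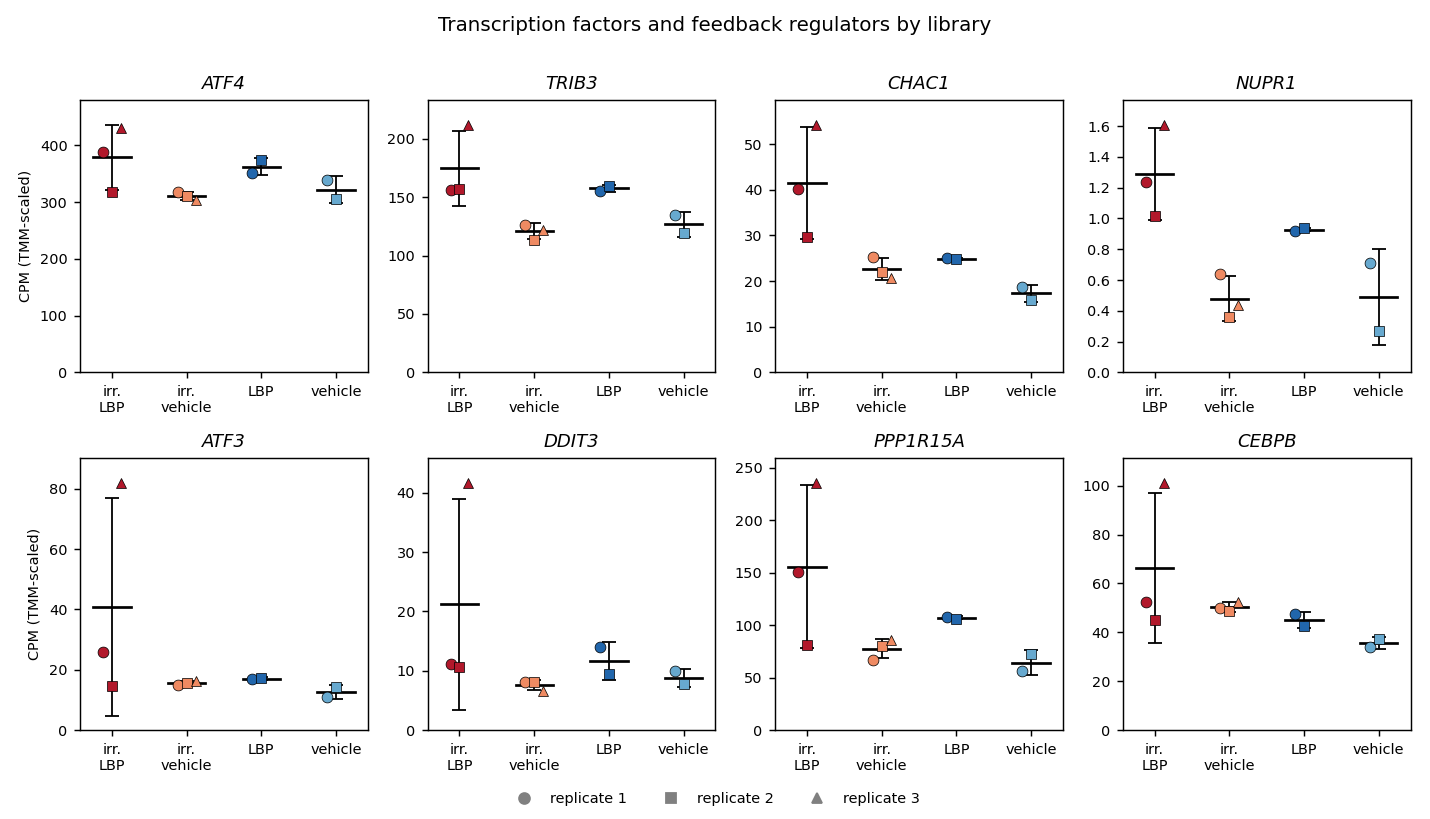
TMM-scaled CPM of 8 regulator genes in each library, by group, with the group mean (long bar) and SD (whiskers); circles, squares and triangles are replicates 1, 2 and 3. For ATF3, DDIT3 and CEBPB the irradiated LBP triangle stands apart, at 82.0, 41.7 and 101 CPM, while the remaining irradiated LBP points reach at most 25.9, 11.2 and 52.5 CPM; for TRIB3, CHAC1 and NUPR1 all irradiated LBP points are above all irradiated vehicle points.

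Of the 4 feedback regulators 2 rose with LBP in irradiated cells. TRIB3, a pseudokinase that binds and restrains ATF4 and CHOP, had 156, 157 and 212 CPM in irradiated LBP, against 127, 113 and 122 CPM in irradiated vehicle. Its levels were 155 and 159.9 CPM in LBP, against 135 and 119 CPM in vehicle, so no LBP-treated library overlapped a vehicle-treated one. It rose by 0.54 ± 0.11 in irradiated cells (edgeR adjusted p = 0.020), and its estimate in non-irradiated cells was 0.31 ± 0.13 (edgeR adjusted p = 0.33). Leaving out any irradiated vehicle replicate ended the call, with adjusted p of 0.056 to 0.094 in edgeR, and so did limma on log2(FPKM + 0.1) and log2(FPKM + 1), with adjusted p of 0.053 and 0.058. CHAC1, an ATF4 target that degrades glutathione, had 40.2, 29.8 and 54.3 CPM in irradiated LBP, against 25.4, 22.0 and 20.7 CPM in irradiated vehicle. It had 25.01 and 24.8 CPM in LBP, against 18.6 and 15.96 CPM in vehicle, and neither pair of groups overlapped. CHAC1 rose by 0.87 ± 0.17 in irradiated cells (1.83-fold, edgeR adjusted p = 0.017), and its estimate in non-irradiated cells was 0.53 ± 0.21 (edgeR adjusted p = 0.30). Without irradiated LBP replicate 3 it was 0.63 and still called (edgeR adjusted p = 0.029), while without irradiated vehicle replicate 2 or 3 the adjusted p was 0.080 or 0.072.

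PPP1R15A encodes GADD34, the phosphatase subunit that removes the phosphate from eIF2. It had 151, 80.7 and 236 CPM in irradiated LBP, against 67.2, 80.4 and 85.5 CPM in irradiated vehicle, with irradiated LBP replicate 2 inside the vehicle range. It was 108 and 106 CPM in LBP, against 55.9 and 72.7 CPM in vehicle, without overlap. The estimates were 1.00 ± 0.27 in irradiated and 0.73 ± 0.34 in non-irradiated cells (edgeR adjusted p = 0.060 and 0.37). Without irradiated LBP replicate 2 the difference in irradiated cells was 1.31 ± 0.17, and without replicate 3 it was 0.58 ± 0.20 (edgeR adjusted p = 0.0016 and 0.16). EIF4EBP1, which encodes the translation repressor 4E-BP1, was at 0.02 in irradiated and 0.27 in non-irradiated cells and was not called.

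Among the 6 serine, glycine and 1-carbon enzymes the first steps of serine synthesis rose in both settings. PHGDH (chr1:119711934-119744215), the enzyme that commits 3-phosphoglycerate to serine synthesis, had 299.9, 264 and 318 CPM in irradiated LBP, against 212, 191 and 222 CPM in irradiated vehicle. It had 309.6 and 329.8 CPM in LBP, against 220.4 and 220.2 CPM in vehicle. The groups were fully apart, and PHGDH rose by 0.50 ± 0.08 in irradiated cells (1.41-fold, edgeR adjusted p = 0.0061) and by 0.54 ± 0.10 in non-irradiated cells (edgeR adjusted p = 0.022). PSAT1 (chr9:78297125-78330093), the transaminase of the next step, had 495, 458 and 436 CPM in irradiated LBP, against 359.5, 351 and 355 CPM in irradiated vehicle. LBP libraries had 501 and 453 CPM, against 363 and 321 CPM in vehicle, and again the groups did not overlap. PSAT1 rose by 0.38 ± 0.07 in irradiated cells (edgeR adjusted p = 0.014) and by 0.48 ± 0.09 in non-irradiated cells (edgeR adjusted p = 0.023). Leaving out any irradiated vehicle replicate moved its adjusted p to 0.054 to 0.074.

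MTHFD2 (chr2:74198615-74217565), the mitochondrial folate dehydrogenase, was the only member called in non-irradiated cells alone. It had 196 and 175 CPM in LBP, against 131.2 and 130.9 CPM in vehicle, and 213, 169 and 191 CPM in irradiated LBP, against 157, 161 and 152 CPM in irradiated vehicle. All LBP-treated libraries were above the vehicle-treated libraries of the same irradiation state. MTHFD2 rose by 0.50 ± 0.10 in non-irradiated cells (edgeR adjusted p = 0.039), and its estimate in irradiated cells was 0.29 ± 0.08 (edgeR adjusted p = 0.067). With the deposited FPKM values, which are also scaled by length, the difference of MTHFD2 in non-irradiated cells was 0.143 on the log2(FPKM + 1) scale (limma adjusted p = 0.59). PSPH, the phosphatase that completes serine synthesis, and SHMT2, the mitochondrial serine hydroxymethyltransferase, were at 0.15 and 0.16 in irradiated cells and at 0.08 and 0.19 in non-irradiated cells, with no call. ALDH1L2, a mitochondrial formyltetrahydrofolate dehydrogenase, was barely detected, at 0.202 to 0.700 CPM over the 10 libraries.

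Of the 7 enzymes of asparagine, proline, alanine, cysteine and phosphoenolpyruvate synthesis, 4 rose in irradiated cells. ASNS (chr7:97851677-97928441), asparagine synthetase and a classical ATF4 target, had 246, 205 and 216 CPM in irradiated LBP, against 142, 135 and 139.9 CPM in irradiated vehicle. It had 232 and 235 CPM in LBP, against 137 and 133 CPM in vehicle. The LBP-treated libraries all lay above the vehicle-treated ones, with a wide gap. ASNS rose by 0.68 ± 0.07 in irradiated cells (1.60-fold, edgeR adjusted p = 0.00026) and by 0.79 ± 0.08 in non-irradiated cells (edgeR adjusted p = 0.00053). It held the smallest p of the 36 in both comparisons.

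CTH (chr1:70411268-70439851), cystathionine gamma-lyase, which releases cysteine from cystathionine, had 31.2, 22.5 and 27.3 CPM in irradiated LBP, against 15.0, 13.8 and 15.6 CPM in irradiated vehicle. It had 26.6 and 24.4 CPM in LBP, against 16.4 and 14.5 CPM in vehicle, again without overlap. CTH rose by 0.87 ± 0.11 in irradiated cells (1.83-fold, edgeR adjusted p = 0.0018) and by 0.73 ± 0.14 in non-irradiated cells (edgeR adjusted p = 0.033). PCK2 (chr14:24094171-24104125), the mitochondrial phosphoenolpyruvate carboxykinase, had 104, 87.3 and 125 CPM in irradiated LBP, against 64.1, 56.8 and 62.4 CPM in irradiated vehicle. It had 94.6 and 96.2 CPM in LBP, against 59.6 and 61.3 CPM in vehicle. No library of one treatment fell in the range of the other, and PCK2 rose by 0.79 ± 0.11 in irradiated cells (1.73-fold, edgeR adjusted p = 0.0022) and by 0.66 ± 0.13 in non-irradiated cells (edgeR adjusted p = 0.040). GPT2 (chr16:46884362-46931289), the mitochondrial alanine transaminase, had 86.6, 79.3 and 92.3 CPM in irradiated LBP, against 62.9, 60.6 and 62.3 CPM in irradiated vehicle. It had 81.5 and 74.5 CPM in LBP, against 62.95 and 57.9 CPM in vehicle. These groups did not overlap either. GPT2 rose by 0.48 ± 0.07 in irradiated cells (1.39-fold, edgeR adjusted p = 0.0046), and its estimate in non-irradiated cells was 0.37 ± 0.09 (edgeR adjusted p = 0.093).

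The remaining 3 enzymes of this set were not called. CBS, cystathionine beta-synthase, was at 0.48 ± 0.17 in irradiated and 0.96 ± 0.20 in non-irradiated cells (edgeR adjusted p = 0.12 and 0.056). Its value is uncertain because reads can be split with the near-identical copy CBSL. The sum of CBS and CBSL was 44.7, 37.7 and 51.0 CPM in irradiated LBP, against 29.87, 29.96 and 32.3 CPM in irradiated vehicle. The same sum was 44.7 and 41.8 CPM in LBP, against 29.95 and 28.3 CPM in vehicle, and neither pair of groups overlapped. PYCR1, which forms proline, was at 0.28 ± 0.08 in irradiated and 0.41 ± 0.10 in non-irradiated cells (edgeR adjusted p = 0.067 and 0.088). ALDH18A1, which catalyses the first steps of proline synthesis, was at -0.04 in irradiated and -0.12 in non-irradiated cells.

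**Figure D3:**
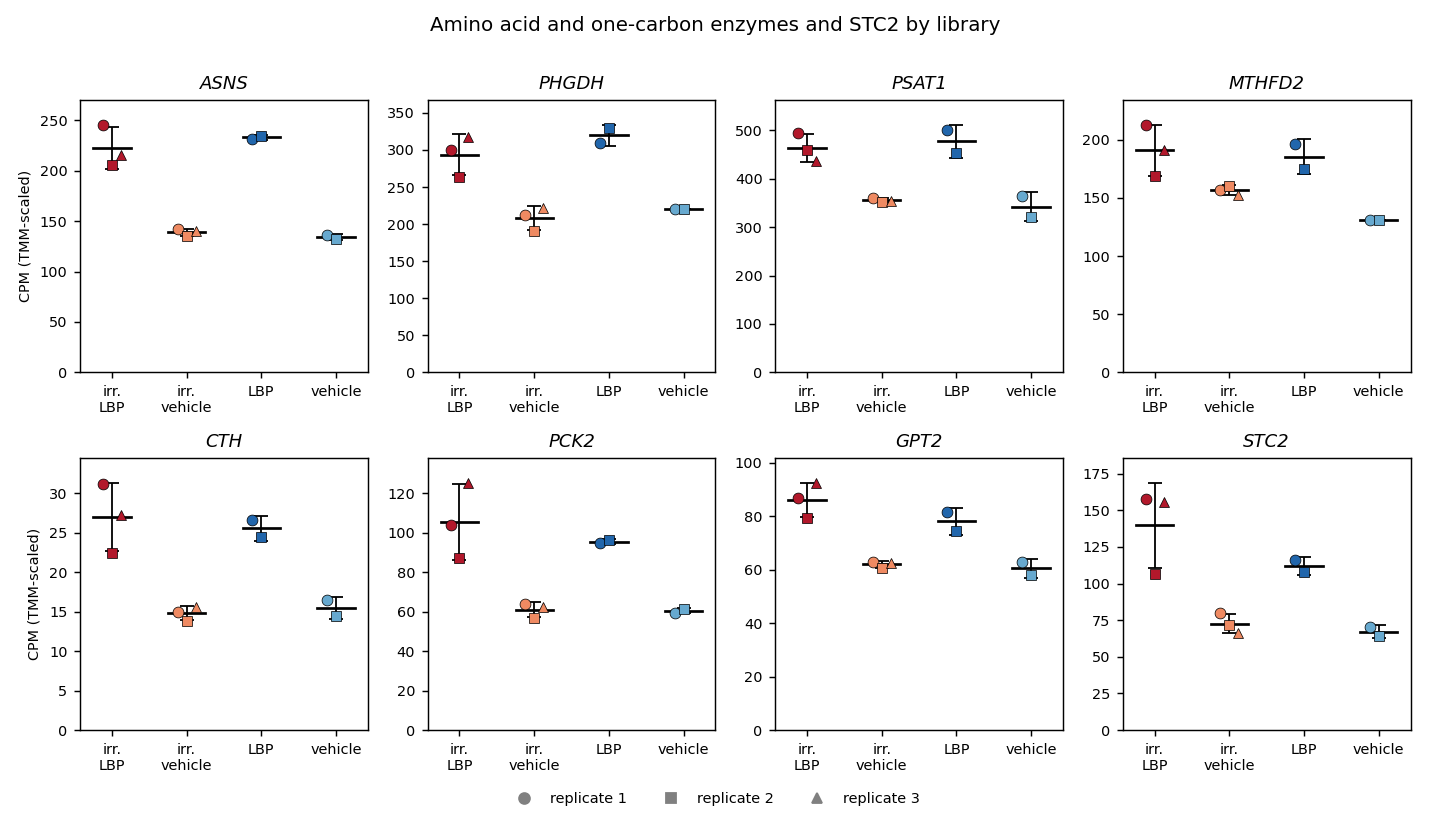
TMM-scaled CPM of 7 enzyme genes and STC2 in each library, by group, with the group mean (long bar) and SD (whiskers); circles, squares and triangles are replicates 1, 2 and 3. In each panel the irradiated LBP points lie above the irradiated vehicle points and the LBP points above the vehicle points, for example at 205 to 246 against 135 to 142 CPM for ASNS.

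Of the 8 amino acid transporters 4 rose in irradiated cells, and all 8 had positive log2 fold changes, from 0.16 to 0.70. SLC3A2 (chr11:62856109-62888860) and SLC7A5 (chr16:87830023-87869507) encode the heavy chain CD98 and the light chain LAT1 of one large neutral amino acid exchanger. SLC3A2 had 1004, 915 and 1098 CPM in irradiated LBP, against 633, 585 and 639 CPM in irradiated vehicle. Its levels were 892 and 906 CPM in LBP, against 588 and 598 CPM in vehicle, with a wide gap between treatments. SLC3A2 rose by 0.70 ± 0.07 in irradiated cells (1.62-fold, edgeR adjusted p = 0.00030) and by 0.60 ± 0.09 in non-irradiated cells (edgeR adjusted p = 0.0076). SLC7A5 had 2896, 2666 and 2769 CPM in irradiated LBP, against 1873, 1851 and 2071 CPM in irradiated vehicle. Its levels were 2577 and 2504 CPM in LBP, against 1982 and 1903 CPM in vehicle, also without overlap. SLC7A5 rose by 0.52 ± 0.07 in irradiated cells (1.44-fold, edgeR adjusted p = 0.0014), and its estimate in non-irradiated cells was 0.39 ± 0.08, just short of the threshold (edgeR adjusted p = 0.055).

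SLC6A9 (chr1:43996483-44031462), the glycine transporter GlyT1, had 83.9, 72.1 and 85.4 CPM in irradiated LBP, against 63.3, 50.1 and 58.1 CPM in irradiated vehicle. It had 67.6 and 66.6 CPM in LBP, against 57.5 and 56.6 CPM in vehicle, and the groups were apart in both settings. SLC6A9 rose by 0.49 ± 0.09 in irradiated cells (edgeR adjusted p = 0.013), and its estimate in non-irradiated cells was 0.23 ± 0.11 (edgeR adjusted p = 0.38). Without irradiated vehicle replicate 2 its adjusted p was 0.060. SLC1A5 (chr19:46774883-46788594), the glutamine carrier ASCT2, had 539, 467 and 579 CPM in irradiated LBP, against 436, 389.6 and 397 CPM in irradiated vehicle. It had 455 and 448 CPM in LBP, against 401 and 376 CPM in vehicle, and the groups did not overlap. SLC1A5 rose by 0.37 ± 0.08 in irradiated cells (edgeR adjusted p = 0.026), and its estimate in non-irradiated cells was 0.22 ± 0.10 (edgeR adjusted p = 0.36). This call was lost without irradiated LBP replicate 1 or 3 and without any irradiated vehicle replicate, with adjusted p of 0.051 to 0.12. It was also lost in the fit of these 2 groups alone (edgeR adjusted p = 0.054) and in limma on log2(FPKM + 0.1) and log2(FPKM + 1), with adjusted p of 0.052 and 0.054.

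The other 4 transporters were not called in irradiated cells. SLC43A1, a carrier of large neutral amino acids, was at 0.45 ± 0.12 (edgeR adjusted p = 0.054), SLC1A4, the neutral carrier ASCT1, at 0.32, SLC7A1, the cationic carrier CAT1, at 0.24, and SLC38A2, the starvation-responsive carrier SNAT2, at 0.16. In non-irradiated cells the same 4 were at 0.14, 0.10, 0.05 and -0.09 in that order. The median of the 8 transporters was 0.41 in irradiated and 0.18 in non-irradiated cells. All 8 had a positive interaction estimate, from 0.10 to 0.31, where 25 of the 36 members and 7525 of 14799 features had one. None of the 8 was called.

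**Figure D4:**
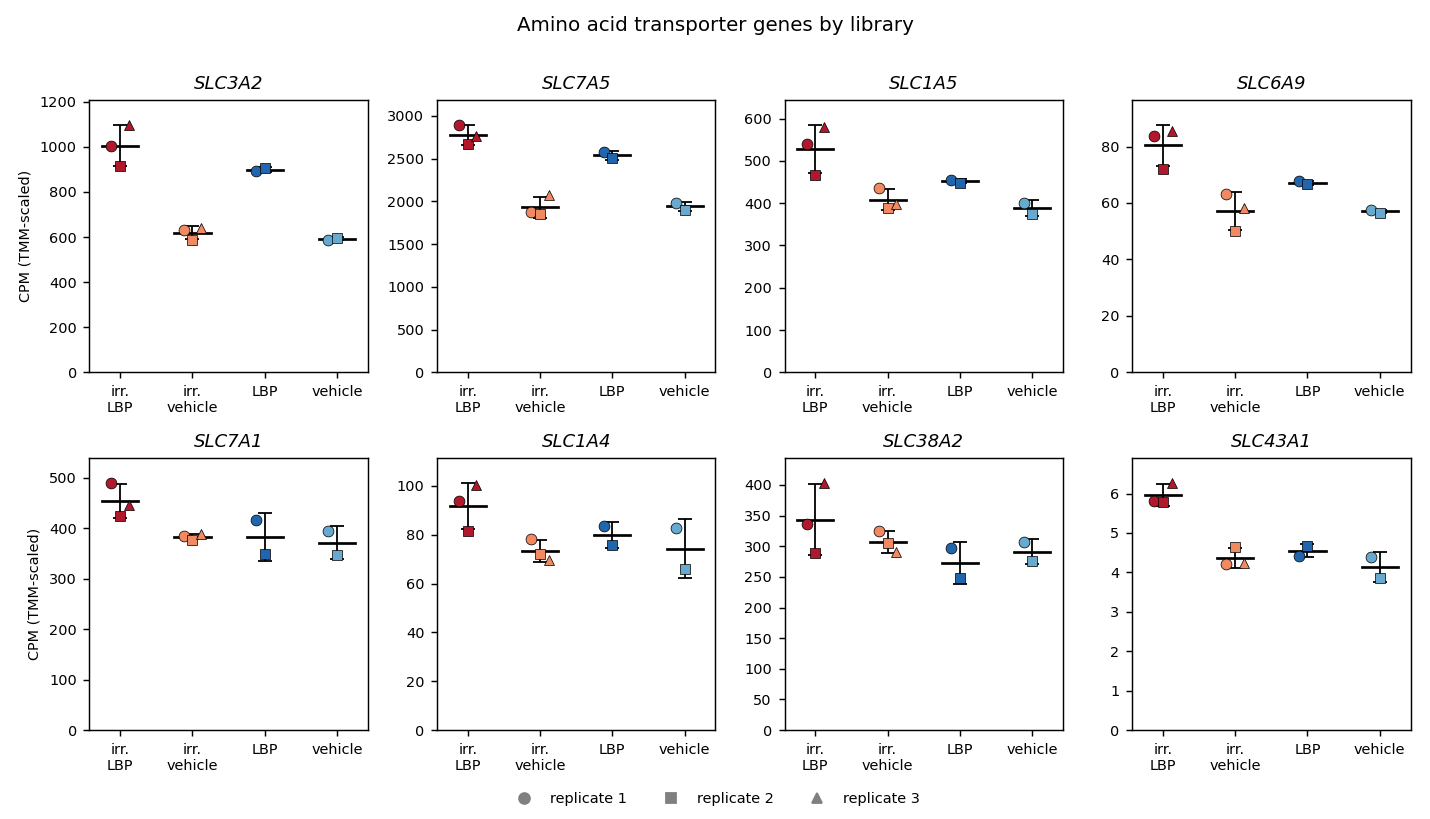
TMM-scaled CPM of the 8 amino acid transporter genes in each library, by group, with the group mean (long bar) and SD (whiskers); circles, squares and triangles are replicates 1, 2 and 3. SLC3A2 and SLC7A5 show the clearest separation of LBP-treated from vehicle-treated libraries, at 915 to 1098 against 585 to 639 CPM and at 2666 to 2896 against 1851 to 2071 CPM in irradiated cells.

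Of the last 3 members, STC2 (chr5:173314723-173328414), a secreted glycoprotein hormone induced by stress, had 158, 106 and 156 CPM in irradiated LBP, against 79.7, 71.6 and 66.6 CPM in irradiated vehicle. It had 116 and 108 CPM in LBP, against 70.4 and 64.1 CPM in vehicle. Irradiated LBP replicate 2 was low for its group but above every vehicle-treated library. STC2 rose by 0.95 ± 0.13 in irradiated cells (1.93-fold, edgeR adjusted p = 0.0022), and its estimate in non-irradiated cells was 0.74 ± 0.16 (edgeR adjusted p = 0.057). VLDLR, a lipoprotein receptor, was at 0.55 ± 0.18 in irradiated (edgeR adjusted p = 0.093) and 0.01 in non-irradiated cells, and XPOT, the tRNA exporter, at 0.22 in irradiated and 0.20 in non-irradiated cells, with no call.

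Within the irradiated LBP group the libraries themselves differed. Replicate 3 was the highest of its group for 23 of the 36 genes, and replicate 2, the shallowest library, was the lowest for 29. Neither count was made over all features, so a trait of these genes cannot be told from one of whole libraries. The part of depth was not tested. The ratio of the highest to the lowest irradiated LBP library exceeded 2 for 4 of the 36 members. It was 5.65 for ATF3, 3.91 for DDIT3, 2.92 for PPP1R15A and 2.25 for CEBPB. The ratio exceeded 2 for 9.34% of all features tested, a similar share. The 8 genes ASNS, SLC3A2, SLC7A5, CTH, PCK2, STC2, GPT2 and PHGDH kept their calls in irradiated cells in each of the 13 alternative settings, including the removal of any library of either group. Without irradiated vehicle replicate 2, 1 or 3 the count of members called was 8, 10 or 9, and without irradiated LBP replicate 2 it was 21. In non-irradiated cells, where each group has 2 libraries, ASNS alone kept its call when any library was left out. The other 6 members each lost theirs, with adjusted p of 0.050 to 0.37 in edgeR and log2 fold changes of 0.40 to 0.81.

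Irradiation was compared in each pretreatment to ask what 12 Gy did to these genes within 3 h. In vehicle cells 0 of the 36 members were called either way, where 0.0338% of all features were called higher and 0.405% lower. Of the 36, 2 (5.56%) had an unadjusted p under 0.05, as had 6.91% of all features, namely JDP2 at 0.36 ± 0.13 and MTHFD2 at 0.26 ± 0.09 (edgeR adjusted p = 0.59 for both). The median of the members was 0.04, beside 0.00 for all features, and DESeq2 called 0 as well. Of the genes that rose with LBP, ASNS was at 0.05 ± 0.08, SLC7A5 at -0.01 ± 0.07, PCK2 at 0.02 ± 0.12 and CTH at -0.06 ± 0.13, while CHAC1 was at 0.39 ± 0.19 with every irradiated vehicle library above both vehicle libraries (edgeR adjusted p = 0.75). CEBPB had 49.9, 48.8 and 52.5 CPM in irradiated vehicle, against 33.9 and 37.4 CPM in vehicle. These groups did not overlap, and the estimate of 0.50 ± 0.26 was not called (edgeR adjusted p = 0.75), except in a fit of these 2 groups alone.

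In LBP cells 0 members were called after irradiation, where 0.0135% of all features were called higher and 0.128% lower. This comparison shares the irradiated LBP libraries with the first one. Unadjusted p was under 0.05 for 9 members, all with positive estimates, or 25%, where 13.5% of all features passed in either direction, and DESeq2 called 1 of the 36, CHAC1. CHAC1 was at 0.74 ± 0.19 (edgeR adjusted p = 0.22), and was called in edgeR when irradiated LBP replicate 2 was left out. ATF3 was at 1.26 ± 0.51 (edgeR adjusted p = 0.32), and at 0.255 without irradiated LBP replicate 3. The 8 transporters all had positive estimates, from 0.13 to 0.39, where 23 of the 36 members had one, with 5 of the 9 among the transporters. The 6 serine, glycine and 1-carbon enzymes had a median of -0.06.

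**Figure D5:**
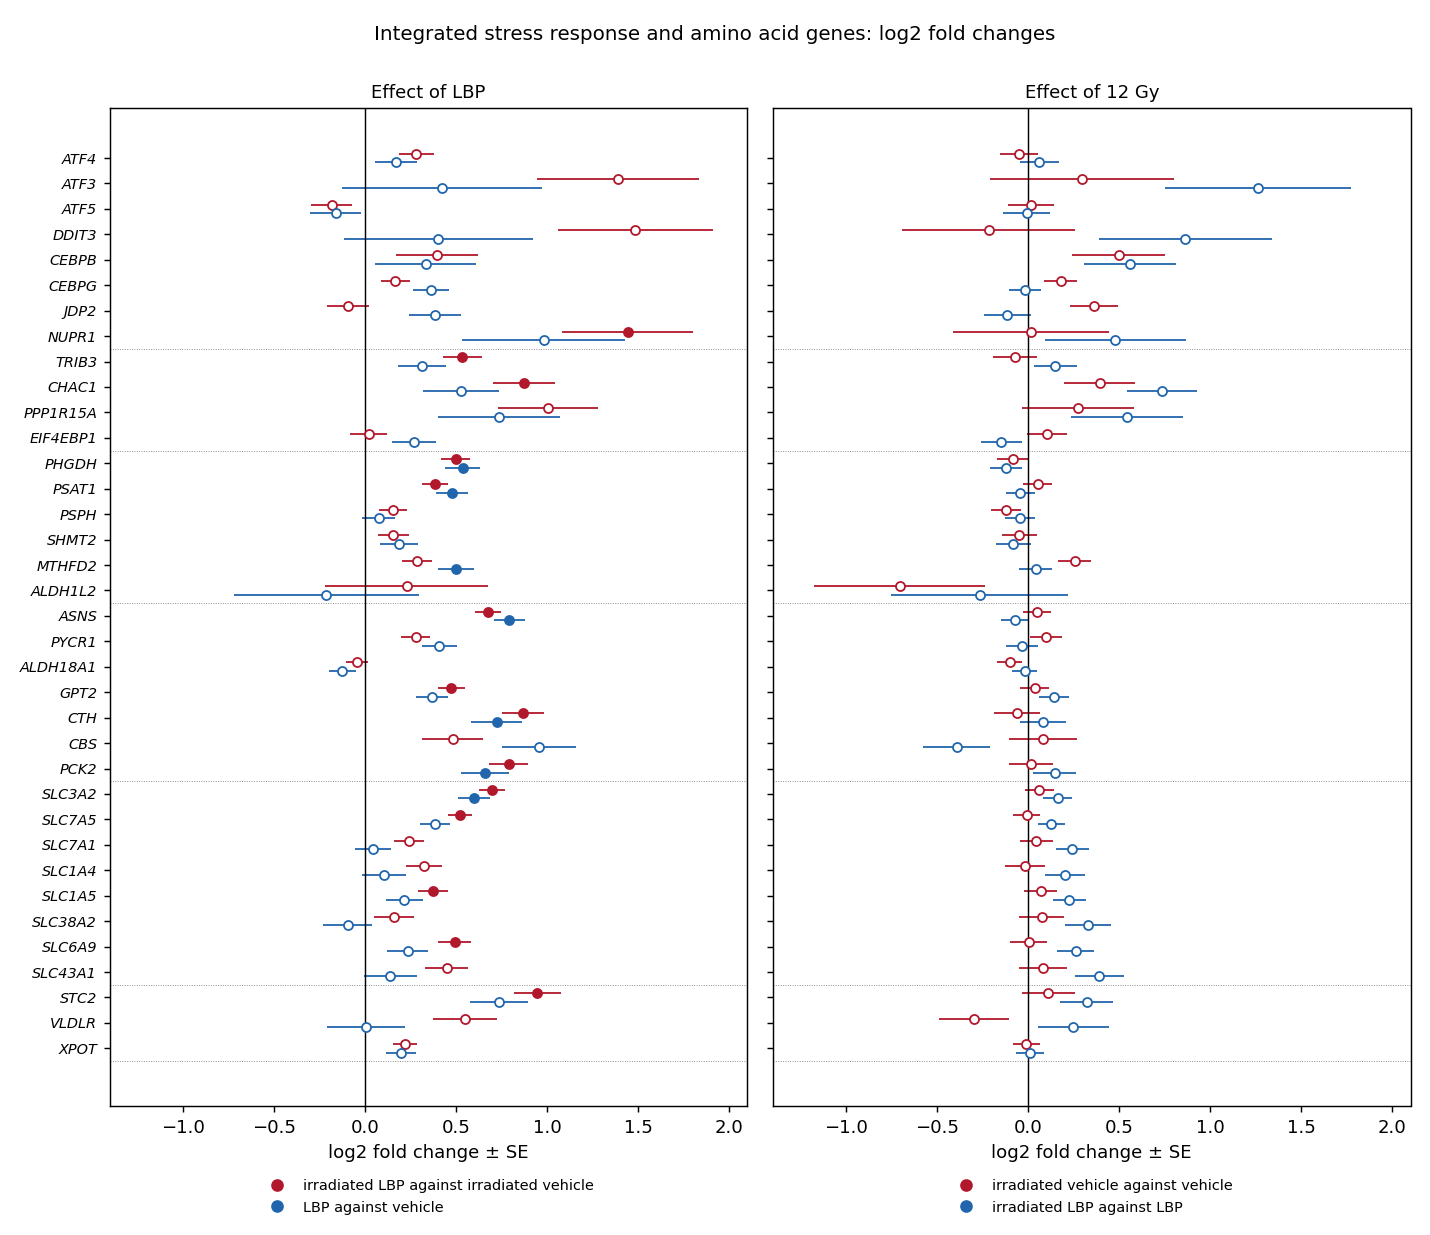
log2 fold change ± SE of the 36 genes for LBP (left panel; red, irradiated LBP against irradiated vehicle; blue, LBP against vehicle) and for 12 Gy (right panel; red, irradiated vehicle against vehicle; blue, irradiated LBP against LBP), with dotted lines between roles; filled points have an adjusted p under 0.05. All 14 red and 7 blue filled points are in the left panel and right of 0, and the right panel has none.

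Whether LBP acted differently with and without irradiation was tested by the interaction, which subtracts the LBP effect without irradiation from the LBP effect with it. None of the 36 members was called, where 0.0135% of all features were, and 1 (2.78%) had an unadjusted p under 0.05, as had 8.20% of all features, JDP2 at -0.48 ± 0.18 (edgeR adjusted p = 0.60). DESeq2 called 0 members too. The difference was -0.12 ± 0.11 for ASNS, 0.10 ± 0.12 for SLC3A2, 0.14 ± 0.11 for SLC7A5, -0.04 ± 0.12 for PHGDH and 0.13 ± 0.17 for PCK2. For ATF3 and DDIT3 it was 0.97 ± 0.71 and 1.08 ± 0.67, a width that covers no difference as well as a large one. Thus 8 members called in irradiated cells alone and 1 called in non-irradiated cells alone are not shown to differ between the settings. All 14 members called in irradiated cells had positive log2 fold changes in non-irradiated cells.

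Other genes of the same pathway were read from lists written with earlier results of these data known. With LBP in irradiated cells, 2.79% of all features were called higher and 1.57% lower. The 17 genes for eIF2 kinases and eIF2 machinery had 0 called in irradiated cells with LBP and a median of -0.03. Unadjusted p was under 0.05 for 7 of 17 (41.2%), 5 of them higher, beside 21.7% of all features in either direction. Among the kinases, EIF2AK3, the sensor of unfolded proteins, was at 0.21 ± 0.09 and EIF2AK4, the sensor of uncharged tRNA, at -0.07 ± 0.05 (edgeR adjusted p = 0.19 and 0.44). Of 20 cytosolic aminoacyl-tRNA synthetases 5 (25%) rose in irradiated cells with LBP and 0 fell. WARS1, for tryptophan, had 494, 503 and 463 CPM in irradiated LBP, against 377, 356 and 389 CPM in irradiated vehicle, and rose by 0.38 ± 0.07 (edgeR adjusted p = 0.010). AARS1, for alanine, had 438, 436 and 449.8 CPM in irradiated LBP, against 344, 326 and 365 CPM in irradiated vehicle, and rose by 0.35 ± 0.06 (edgeR adjusted p = 0.013). In both genes the groups were apart. None of the 20 synthetases was called in non-irradiated cells, though 6 (30%) had an unadjusted p under 0.05, all higher, where 13.5% of all features had one in either direction.

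Among 19 tested genes on a list of other ATF4 targets 6 (31.6%) rose and 0 fell with LBP in irradiated cells, against 2.79% of all features called higher. In non-irradiated cells 3 (15.8%) rose, against 0.541% of all features. There only 10 of the 19 had positive log2 fold changes, with a median of 0.105 and a range of -0.945 to 1.53. SLC7A11, the cystine carrier xCT and a target of NRF2 as well as ATF4, had 328, 231 and 248 CPM in irradiated LBP, against 94.8, 101 and 96.4 CPM in irradiated vehicle. It had 312 and 222 CPM in LBP, against 93.4 and 91.3 CPM in vehicle. Every LBP-treated library was far above every vehicle-treated library. SLC7A11 rose by 1.47 ± 0.14 in irradiated cells (edgeR adjusted p = 0.00012) and by 1.53 ± 0.17 in non-irradiated cells (edgeR adjusted p = 0.00055). TXNIP, a thioredoxin-binding protein, had 71.4, 89.9 and 65.6 CPM in irradiated LBP, against 29.5, 34.8 and 35.7 CPM in irradiated vehicle, and rose by 1.18 ± 0.11 and, without irradiation, by 0.91 ± 0.14 (edgeR adjusted p = 0.00016 and 0.0087). SQSTM1, an autophagy receptor, was the remaining gene of this list called in non-irradiated cells, at 0.68 ± 0.11 (edgeR adjusted p = 0.013).

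Enzymes and transporters that are not members were read in the same way, beside the 2.79% of all features called higher and 1.57% called lower. Of 22 tested genes for other serine, proline, asparagine and glutamine enzymes, 0 rose and 1 fell with LBP in irradiated cells, the ornithine aminotransferase gene OAT at -0.26 ± 0.06 (edgeR adjusted p = 0.030), with a list median of -0.06. Of 18 other amino acid transporters 1 (5.56%) rose, SLC7A8 at 0.57 ± 0.12, and 1 fell, SLC1A3 at -0.27 ± 0.07 (edgeR adjusted p = 0.020 and 0.038). Of 21 genes of the unfolded protein response of the endoplasmic reticulum 1 (4.76%) rose, XBP1 at 0.37 ± 0.09 (edgeR adjusted p = 0.035), and the list median was 0.04. In the irradiation comparisons and the interaction no gene of these 6 lists was called.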

How the data were processed

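RNA from 10 HaCaT libraries was sequenced. The submitters' processing notes name HISAT2 and GRCh38 without versions. The counting tool is not given in the sources used here, nor are its annotation and strand setting. Raw counts per gene were deposited by the authors as whole numbers. FPKM values, scaled for gene length and depth by the authors, came in another table. Of counts from 1 to 10, 59.7% were even, so both mates of some pairs may have been counted.

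Counts were tested in edgeR 4.0.16 (R 4.3.3): filterByExpr with a minimum count of 10, TMM, and a quasi-likelihood fit with 1 mean per group over all 10 libraries, with 6 residual degrees of freedom and a biological coefficient of variation of 11.5%. Benjamini-Hochberg adjustment of the p-values ran over 14799 features. Unless another tool is named, every adjusted p comes from this fit. SE is the size of the log2 fold change divided by the root of F. The alternatives were DESeq2 1.42.0, limma 3.58.1 on log2(FPKM + 0.1) and log2(FPKM + 1), DESeq2's size factors in edgeR (RLE), no filter, the compared groups alone, a replicate block, and each library left out. All alternatives were marked as planned, though earlier results of these data were known.

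Members and lists were chosen with earlier results of these data known. All 36 members are named. Values in each library are given for called members and for ATF4, ATF3 and DDIT3, as well as for some others described beside them. Of the other lists, genes with the smallest p and those called without irradiation are named. The eIF2 list is an exception, where EIF2AK3 and EIF2AK4 are named as kinases and not by their p. RefSeq windows and gene positions are those of GRCh38.p14.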

Additional observations from a re-analysis of the deposited data

How the results depend on the processing

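Combinations of a named gene, a comparison and an alternative setting numbered 497. Of these, 425 kept their side of the threshold, 62 lost a call and 10 gained a call. Where the gene was called in either fit, 0 reversed direction. Sign changes between uncalled values were not counted as reversals. For example, DDIT3 in irradiated LBP against LBP was never called and ran from -0.0895 to 1.18. No setting moved the median of all features by 0.1. The cause of the differences between settings was not tested. For irradiated LBP against irradiated vehicle, 645 features and 14 members were called. DESeq2 called 1228 features and 22 members. The 2 groups alone gave 409 features, and limma on FPKM gave 304 (pseudocount 0.1) and 313 (pseudocount 1), with 11 members in each, without NUPR1, TRIB3 and SLC1A5. Leaving out a library gave 176 to 722 features and 8 to 21 members. For LBP against vehicle (119 features, 7 members), DESeq2 called 374 and 12, the 2 groups alone 278 and 12, limma on FPKM 69 and 1 (pseudocount 0.1) or 62 and 1 (pseudocount 1), and no filter 188 features. Leaving out a library gave 38 to 52 features and 1 to 2 members. For irradiated vehicle against vehicle (65 features, 0 members), the values were 129 features with DESeq2, 109 features and 1 member with the 2 groups alone, 41 and 37 features with limma on FPKM, and 25 to 35 features without a library. For irradiated LBP against LBP (21 features, 0 members), they were 184 features and 1 member with DESeq2, 45 with no filter, 10 with the 2 groups alone, 11 and 10 with limma on FPKM, and 8 to 51 features and 0 to 1 member without a library. The interaction (2 features, 0 members) gave 16 with DESeq2, 7 with no filter, 4 with limma on log2(FPKM + 0.1), and 0 to 5 without a library.

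Same-numbered libraries were not paired by any label, and 2 of 13 same-numbered pairs had deviations correlated above 0.1. With a replicate block the members called were 19 for irradiated LBP against irradiated vehicle and 12 for LBP against vehicle, with 813 and 148 features, and the interaction had 1 feature. Depth limits mainly NUPR1 and ALDH1L2, the members with the fewest counts.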
